A study of Mus musculus with 2 samples.

Results

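Mir21a, Mir199a-1, Mir199a-2, Mir199b and Mir214 are microRNA genes linked to fibroblasts and mesenchyme, and they were followed in the small RNA of the newborn mouse heart. They were taken by name from the annotation, and all 5 were found among the 1973 microRNA genes counted. The samples were whole hearts of B6NCrl mice, a C57BL/6N substrain, at postnatal day 0, with no treatment or engineered allele given. Heart 1 came from pup 1 and heart 2 from pup 3, with 1 library of total RNA each, restricted by size to under 30 nt. There is a single group and no second condition, so the data give levels in the newborn heart, ratios between genes, and the difference between 2 animals. Sex was not recorded, and both pups carry the same donor identifier.

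MicroRNAs are cut from hairpin precursors, and the mature strand guides silencing of transcripts that pair with its seed, bases 2 to 8 counted from the 5′ end. miR-21 is made from a precursor in the host gene Vmp1 and is best known in the heart from fibroblasts, where it is raised in remodelling and is reported to act on the growth-signal inhibitor Spry1. miR-199a and miR-214 are made together from the noncoding transcript Dnm3os, which the mesenchymal transcription factor Twist1 drives in the embryo, and Dnm3os lies antisense inside the dynamin gene Dnm3. miR-214 is known to restrain the sodium-calcium exchanger in cardiomyocytes. miR-199a-3p is known for raising proliferation of rodent cardiomyocytes, and miR-199b-5p for its link to calcineurin signalling. No cell of origin was measured, and in whole tissue fewer cells of a type and less RNA per cell cannot be told apart.

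The mature sequences set which genes can be told apart by a read, so they are given here from RefSeq (GRCm38.p6), with the seed in capitals. The strands that belong to a single precursor come first, followed by the strands of the Mir199 genes.
mmu-miR-21a-5p: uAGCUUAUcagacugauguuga
mmu-miR-21a-3p: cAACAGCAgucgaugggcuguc
mmu-miR-214-5p: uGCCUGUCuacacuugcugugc
mmu-miR-214-3p: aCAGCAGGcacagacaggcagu
mmu-miR-199a-5p: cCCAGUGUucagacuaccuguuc
mmu-miR-199a-3p and mmu-miR-199b-3p: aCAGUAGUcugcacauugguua
Mir199b stretch aligned to miR-199a-5p: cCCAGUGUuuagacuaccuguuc

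miR-199a-5p was found in 2 of the 1005 RefSeq precursors searched, those of Mir199a-1 and Mir199a-2. The sequence called miR-199a-3p or miR-199b-3p was found in 3, those of Mir199a-1, Mir199a-2 and Mir199b. Each strand of miR-21a and miR-214 was found in 1 precursor. The Mir199b stretch differs from miR-199a-5p at 1 position, C10U, counted from 1 at the 5′ end with the miR-199a-5p base first. That position lies outside the seed, so the seed CCAGUGU is the same in all 3 Mir199 genes while the whole 5p strand of Mir199b was held by 1 precursor. A read of miR-199a-5p therefore cannot tell Mir199a-1 from Mir199a-2, and a read of the common 3p strand cannot tell any of the 3 genes apart. The deposited tables list reads that matched several places apart from the genes, so such reads are in none of the counts given here.

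The precursors show where a read could still be assigned. In the sequences that follow, capitals mark bases inside any stretch of 22 nt that another RefSeq precursor also holds.
Mir199a-1: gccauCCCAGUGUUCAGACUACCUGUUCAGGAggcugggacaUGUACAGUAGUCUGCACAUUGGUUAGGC
Mir199a-2: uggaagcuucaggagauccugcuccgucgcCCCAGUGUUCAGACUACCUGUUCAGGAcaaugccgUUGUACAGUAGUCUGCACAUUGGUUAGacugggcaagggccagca
Mir199b: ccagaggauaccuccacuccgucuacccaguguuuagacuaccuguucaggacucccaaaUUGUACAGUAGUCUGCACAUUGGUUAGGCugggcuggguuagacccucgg

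Shared stretches covered 55 of 70 bases of Mir199a-1 (78.6%), 54 of 110 bases of Mir199a-2 (49.1%) and 29 of 110 bases of Mir199b (26.4%). In Mir199a-1 and Mir199a-2 they covered both mature strands, and in Mir199b the 3p strand only. Of the 22 nt windows, 13 of 49 in Mir199a-1, 12 of 89 in Mir199a-2 and 8 of 89 in Mir199b were shared, against 0 of 71 in Mir21a and 0 of 89 in Mir214. Among the 869 RefSeq precursors whose gene was counted, 91 held a shared window. Aligned over 68 bases, Mir199a-1 was 86.8% identical to Mir199a-2 and 88.2% identical to Mir199b, and Mir199a-2 was 86.7% identical to Mir199b over 98 bases. The longest identical run was 28 nt between Mir199a-1 and Mir199b, and 27 nt in each of the other pairs. With 1 more base of the precursor at its 5′ end, miR-199a-5p read from Mir199a-1 or from Mir199a-2 matched no other precursor, whereas at the 3′ end 5 more bases were needed. For miR-199a-3p from Mir199a-2, 5 more bases at the 5′ end or 2 at the 3′ end were needed. Among 141767 annotated transcripts, windows of the Mir199 precursors were otherwise found only in Dnm3os, which contains Mir199a-2, and those of Mir21a and Mir214 in no gene elsewhere.

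**Figure D1:**
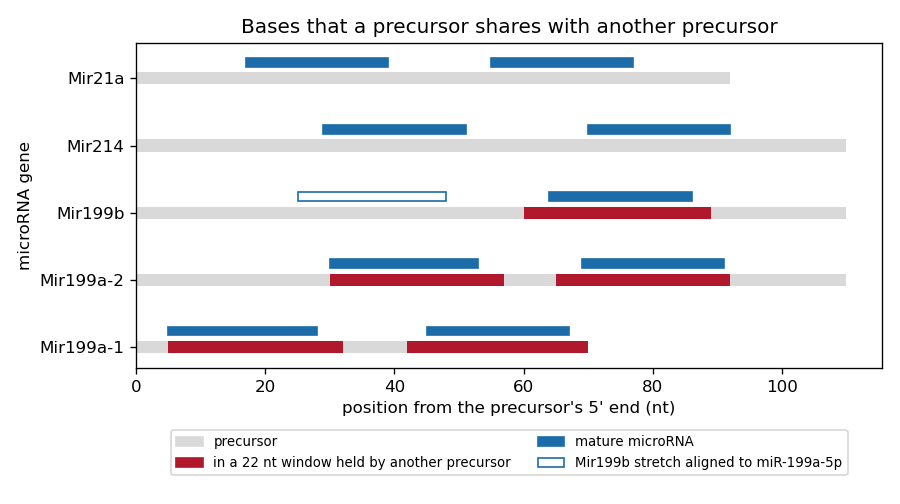
Each grey bar is a precursor, drawn from its 5′ end in nt, with red where a 22 nt stretch is also held by another RefSeq precursor, blue above it for each mature microRNA, and an open bar for the Mir199b stretch aligned to miR-199a-5p. Red lies under both mature strands of Mir199a-1 and Mir199a-2 and under the 3p strand alone of Mir199b, and is absent from Mir21a and Mir214.

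The genes lie at 4 places in the genome (mm10, GENCODE M21). Mir21a (ENSMUSG00000065455.1) is at chr11:86584067-86584158 on the minus strand, within an exon of Vmp1 that GENCODE marks as untranslated in a transcript of that gene. Mir199a-2 (ENSMUSG00000070126.1), at chr1:162217814-162217923, and Mir214 (ENSMUSG00000065516.1), at chr1:162223368-162223477, are both on the plus strand in exons of Dnm3os and opposite an intron of Dnm3, with 5445 nt between them. Mir199b (ENSMUSG00000092807.1), at chr2:32318460-32318569 on the plus strand, is opposite an intron of Dnm1, and Mir199a-1 (ENSMUSG00000065547.1), at chr9:21496495-21496564 on the minus strand, is opposite an intron of Dnm2. All 3 Mir199 genes thus lie antisense in introns of dynamin genes. The sole other counted gene within 10000 nt was Gm23363, 117 nt from Mir199b, with 1 count in heart 1 and 2 in heart 2.

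Levels are sense-strand CPM, that is, counts on the strand of the gene scaled to a sum of 1000000 over all genes of the library. This gene total was 6373797 in heart 1 and 7630427 in heart 2. A microRNA read is a whole short molecule counted once, so counts were not divided by precursor length, which runs from 70 nt in Mir199a-1 to 110 nt in Mir199a-2, Mir199b and Mir214. Exact Clopper-Pearson 95% intervals are given per heart and, like the detection floor of 3 counts (0.471 CPM in heart 1 and 0.393 CPM in heart 2), cover counting error only. Reads that matched several places were 35.9% of all reads in heart 1 and 34.6% in heart 2.

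Mir21a was by far the most abundant of the 5 genes. It had 128500 counts in heart 1 and 140302 in heart 2, or 20161 CPM (95% interval 20052 to 20270) and 18387 CPM (18292 to 18483), a mean of 19274 ± 1254 CPM (SD, n = 2). That placed it at rank 14 of all genes in heart 1 and rank 17 in heart 2, and it took 2.02% and 1.84% of all gene counts. The genes next to it in mean level were Mir130a, at 20318 and 19441 CPM in hearts 1 and 2, and Mir30a, at 16615 and 20672 CPM. Both neighbours lay within the spread between the hearts. Mir21a made up 92.3% of the counts of the 5 genes in heart 1 and 91.5% in heart 2.

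Mir214 was the next, and it varied the least between hearts. It had 8284 counts in heart 1 and 10181 in heart 2, or 1300 CPM (1272 to 1328) and 1334 CPM (1308 to 1360), a mean of 1317 ± 24.4 CPM. Its SD was 1.86% of its mean, against 6.51% for Mir21a. It stood at rank 62 in heart 1 and 63 in heart 2, between Mir181d, at 1189 and 1519 CPM, and Mir18, at 1294 and 1295 CPM. Mir214 was 6.29% ± 0.489 of the counts of the 5 genes.

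The Mir199 genes followed in the order Mir199b, Mir199a-2, Mir199a-1. Mir199b had 2232 counts in heart 1 and 2460 in heart 2, or 350 CPM (336 to 365) and 322 CPM (310 to 335), a mean of 336 ± 19.7 CPM. Mir199a-2 had 216 and 348 counts, or 33.9 CPM (29.5 to 38.7) and 45.6 CPM (40.9 to 50.7), a mean of 39.7 ± 8.29 CPM. Mir199a-1 had 11 and 24 counts, or 1.73 CPM (0.862 to 3.09) and 3.15 CPM (2.02 to 4.68), a mean of 2.44 ± 1.00 CPM. In every step of the order Mir21a, Mir214, Mir199b, Mir199a-2, Mir199a-1, the values of both hearts were above those of the gene after it, and the order was the same with counts divided by precursor length. Ranks by mean were 111 for Mir199b, 206 for Mir199a-2 and 325 for Mir199a-1, where 358 genes had 10 or more counts in both hearts, with a median of 64.6 CPM.

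**Figure D2:**
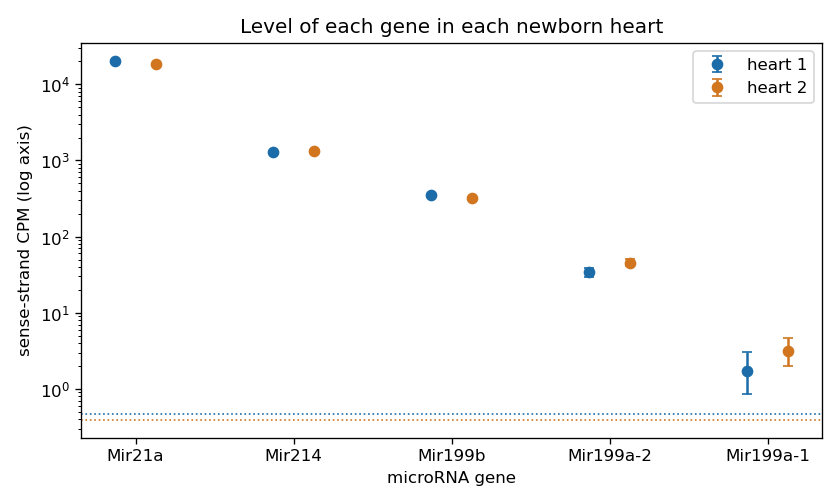
Points show sense-strand CPM (log axis) of each gene in heart 1 (blue) and heart 2 (orange), bars the exact 95% intervals, and dotted lines the level of 3 counts in each library. The 5 genes run from about 20161 CPM for Mir21a in heart 1 to 1.73 CPM for Mir199a-1 in heart 1, and at no gene are the hearts as far apart as the genes are from each other.

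Close neighbours in level were also found for the Mir199 genes. Mir199b lay between Mir874, at 341 ± 10.5 CPM, and Mir25, at 330 ± 3.17 CPM, both within the spread of Mir199b. Mir199a-2 lay between the hepatocyte microRNA Mir122, at 40.2 ± 6.21 CPM, and Mir539, at 35.2 ± 3.41 CPM. Mir199a-1 lay between Mir1231, at 2.47 ± 0.393 CPM, and Mir294, at 2.38 ± 0.403 CPM. These are genes of like mean level, and with 2 hearts no likeness of profile can be given.

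**Figure D3:**
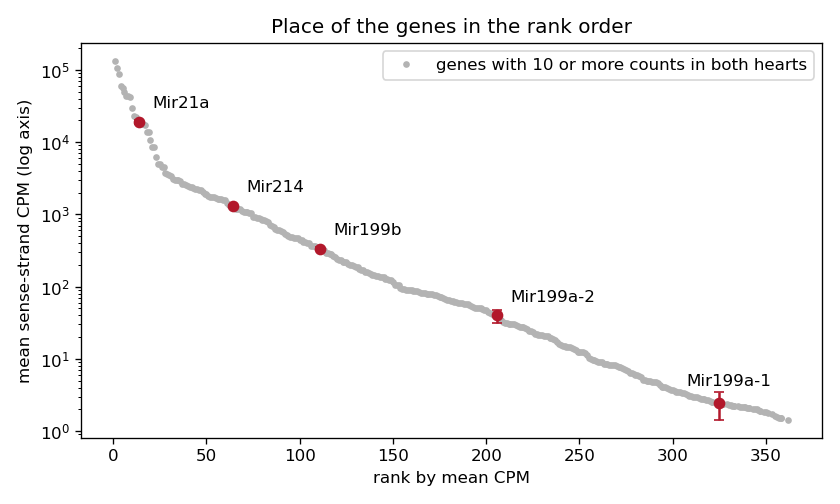
Grey points are the 358 genes with 10 or more counts in both hearts, with rank on the x axis and mean CPM (log axis) on the y axis, with the 5 genes in red and bars of 1 SD over 2 hearts. The genes are spread along the order, from rank 14 for Mir21a to rank 325 for Mir199a-1.

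Ratios within a library do not depend on its depth. Mir214 exceeded Mir199a-2, which lies in the same transcript, by 38.4-fold in heart 1 (95% interval 33.5 to 44.1) and 29.3-fold in heart 2 (26.3 to 32.6), a mean log2 ratio of 5.06 ± 0.28. Mir214 and its strands are held by 1 precursor while both strands of Mir199a-2 are shared, and the part of that sharing in the ratio was not tested. Mir214 exceeded Mir199b by 3.71-fold (3.54 to 3.89) and 4.14-fold (3.96 to 4.33), and Mir21a exceeded Mir214 by 15.5-fold (15.2 to 15.9) and 13.8-fold (13.5 to 14.1). In each of these 3 ratios, which all hold Mir214, the intervals of the hearts did not overlap, so the hearts differed by more than counting error. Among all the ratios worked out here, the intervals overlapped only in those that hold Mir199a-1. For levels of single genes, differences beyond counting error were common, and 31.0% of all genes tested passed the exact binomial test given below. No such share was worked out for ratios of other genes.

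Within the Mir199 genes, the gene with the fewest shared bases had the most counts. Mir199b gave 90.8% of the Mir199 counts in heart 1 and 86.9% in heart 2, Mir199a-2 gave 8.78% and 12.3%, and Mir199a-1 gave 0.447% and 0.847%. Mir199b exceeded Mir199a-2 by 10.3-fold (8.98 to 11.9) and 7.07-fold (6.32 to 7.93), and Mir199a-1 by 203-fold (113 to 407) and 102.5-fold (68.7 to 160). Mir199a-2 exceeded Mir199a-1, with which it shares both mature strands, by 19.6-fold (10.8 to 39.9) and 14.5-fold (9.58 to 22.9). Mir199a-1 is also the shortest precursor, and its 3p strand ends at base 67 of 70. Per base of precursor, the mean log2 ratio of Mir199a-1 over Mir199a-2 was -3.38 rather than -4.03. The order of the 3 genes runs opposite to their share of shared bases, and whether it holds for the mature microRNAs was not tested, since reads of the shared strands are not assigned to a gene. Summed, the 3 genes had 386 CPM in heart 1 and 371 CPM in heart 2, which leaves out every read that matched several places.

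Other microRNAs with the same seeds were not detected. Mir21c, which shares the seed AGCUUAU with miR-21a-5p, and Mir761, which shares CAGCAGG with miR-214-3p, had 0 counts in both hearts, which allows up to 0.471 CPM in heart 1 and 0.393 CPM in heart 2. Mir21b also had 0 counts, and its mature strand differs from miR-21a-5p inside the seed.
mmu-miR-21b: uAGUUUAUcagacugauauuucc
mmu-miR-21c: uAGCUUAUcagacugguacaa
mmu-miR-761: gCAGCAGGgugaaacugacaca
Compared base by base from the 5′ end, miR-21b differs from miR-21a-5p by C4U, G18A, G21U and A22C. miR-21c differs by A16G, G18A, U19C, U20A and G21A, all outside the seed. No seed of the 3p strand of Mir21a, of either strand of the Mir199 genes, or of the 5p strand of Mir214 was found in another mature microRNA outside these genes, among 1738 searched.

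Almost no small RNA was counted on the strand opposite to the 5 genes. The libraries hold RNA under 30 nt, so longer transcripts of that strand were not measured. Mir21a had 1 opposite-strand count in heart 1 and 2 in heart 2, at or under the floor of 3 counts, and the other 4 genes had 0 in both. Reads opposite to Mir214 or to the Mir199 genes were therefore not detectable at this depth.

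The 2 hearts differed in some of the genes but not in 1 direction. Exact binomial tests given the library totals were adjusted by Benjamini-Hochberg over all 435 genes with 10 or more counts. At the threshold of 0.05, 3 of the 5 genes passed, where 31.0% of all genes tested did. With the minimum raised to 100 counts, which Mir199a-1 did not reach, 49.1% of 275 genes passed. Mir21a was 1.10-fold higher in heart 1 (log2 ratio of heart 1 over heart 2 0.13, exact binomial adjusted p = 4.85e-124) and Mir199b 1.09-fold higher in heart 1 (0.12, exact binomial adjusted p = 0.0173). Mir199a-2 was 1.34-fold higher in heart 2 (-0.43, exact binomial adjusted p = 0.00241). Mir214, from the same transcript as Mir199a-2, had a log2 ratio of -0.04 (exact binomial adjusted p = 0.200) and Mir199a-1 one of -0.83 on few counts (exact binomial adjusted p = 0.280), and neither passed.

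The genes higher in heart 1 among the 5 were Mir21a and Mir199b, and 12.0% of all genes tested were higher there, against 19.1% higher in heart 2. The median log2 ratio of the 5 genes was -0.04, and over all genes tested it was -0.02. The test compares 2 libraries and counts sampling noise only, so animal and library preparation cannot be told apart. When an edgeR exact test allowed for a preset biological coefficient of variation of 0.1, none of the 5 genes passed, with adjusted p of 1 for Mir21a, 0.758 for Mir199a-2 and 1 for Mir199b, and 1 gene of all 435 did (29 at an unadjusted p under 0.05).

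**Figure D4:**
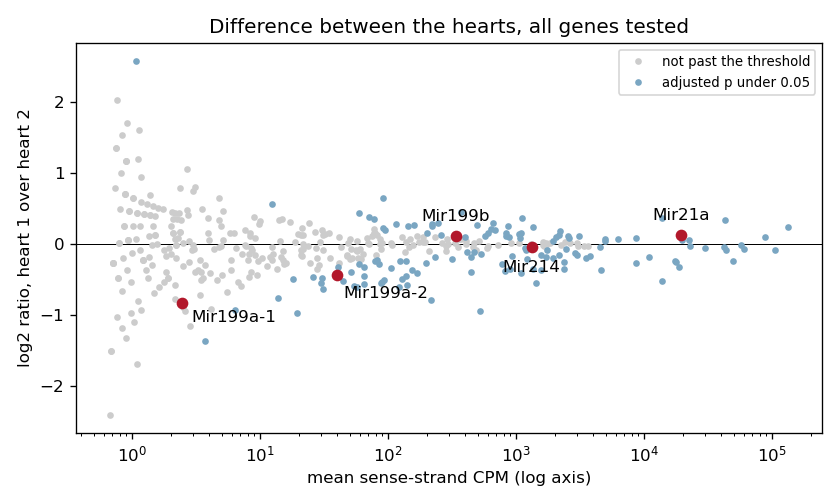
Each point is 1 of 435 genes, with mean CPM (log axis) on the x axis and the log2 ratio of heart 1 over heart 2 on the y axis, in blue where the exact binomial adjusted p is under 0.05 and in grey otherwise, and the 5 genes in red. Mir21a and Mir199b lie just above 0 at 0.13 and 0.12, Mir214 at -0.04, and Mir199a-2 and Mir199a-1 below it at -0.43 and -0.83.

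Set beside markers of other cell types, Mir21a was below the leading gene of the endothelium, cardiac muscle and smooth muscle lists. In reads assigned to a gene, it was above the other genes counted in those lists. The most abundant of these was Mir208a, at 13703 ± 2426 CPM. Mir21a was also above every gene counted in the erythroid, leukocyte and epithelium lists. Mir126a, the endothelial microRNA, exceeded Mir21a by 7.15-fold in heart 1 and 6.65-fold in heart 2. Mir208b, from an intron of the myosin gene Myh7, exceeded it by 5.05-fold and 5.88-fold, and Mir143, a microRNA of smooth muscle, by 4.53-fold and 4.63-fold. The 5 genes took 2.18% of all gene counts in heart 1 (2.17 to 2.20) and 2.01% in heart 2 (1.999 to 2.02). The endothelium list (Mir126a and Mir139) took 14.7% and 12.5%, the cardiac muscle list, led by Mir208b and Mir208a, 12.2% and 12.5%, and the smooth muscle list (Mir143 and Mir145a) 9.41% and 8.77%. The cardiac share leaves out Mir1a-2, which was not analysed here. In the same list Mir1a-1, Mir133a-1 and Mir133a-2, whose mature strands have other copies in the genome, had 8.89, 8.24 and 2.08 CPM on average. Reads of those strands that matched several places are left out. These levels and the cardiac share may therefore be too low, by an amount that was not tested. The erythroid list, led by Mir451a at 1084 ± 217 CPM and Mir144 at 91.5 ± 28.8 CPM, took 0.111% and 0.138%. The leukocyte list, led by Mir223 and Mir155, took 0.0554% and 0.0595% without Mir142, which was not analysed here, and the epithelium list, led by Mir203 and Mir429, took 0.0324% and 0.0298%.

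The genes of the endothelium, smooth muscle and cardiac muscle lists did not all move in 1 direction between the hearts. Of the 2 endothelium genes, Mir126a was 1.18-fold higher in heart 1 and Mir139 1.09-fold higher in heart 2. Of the 2 smooth muscle genes, Mir143 was 1.07-fold higher in heart 1 and Mir145a did not pass, with a log2 ratio of heart 1 over heart 2 of 0.01. Of the 6 cardiac muscle genes counted, Mir208a was 1.29-fold and Mir499 1.05-fold higher in heart 1. Mir208b was 1.06-fold higher in heart 2, and 3 cardiac muscle genes did not pass. Of all genes tested, 12.0% were higher in heart 1 and 19.1% in heart 2. The median log2 ratio of the cardiac list was 0.12, while its summed share was higher in heart 2, where Mir208b was higher. Whether the makeup of the hearts had a part in the difference of Mir21a was not tested.

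Other microRNAs linked to fibrosis were compared by a list of genes linked to activated fibroblasts and a list linked to restraint of collagen or matrix. The activated-fibroblast list took 2.46% of the counts in heart 1 and 2.37% in heart 2. Most of it came from Mir22, also abundant in cardiomyocytes, at 22348 ± 611 CPM, and Mir125b-2 followed at 634 ± 66.6 CPM. Shared 22 nt windows were not counted for Mir125b-2, so whether this list also leaves out reads that matched several places was not tested. Mir34a, a target of p53, had 416 ± 21.9 CPM, and Mir132, which acts on Foxo3 in cardiomyocytes, 256 ± 16.0 CPM. Of its 7 genes, 3 were higher in heart 1 (Mir22, Mir125b-2 and Mir132), 2 in heart 2 (Mir34a and Mir155) and 2 did not pass, where 12.0% of all genes tested were higher in heart 1 and 19.1% in heart 2. All 7 reached the minimum of 100 counts, a setting in which 49.1% of 275 genes passed. The median log2 ratio of the list was 0.06, beside -0.02 over all genes tested.

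The list linked to restraint of collagen or matrix took far less, 0.315% in heart 1 and 0.276% in heart 2. It was led by Mir101b, at 1360 ± 160 CPM, and Mir24-2, at 570 ± 32.4 CPM. Mir29a, which acts on collagen transcripts, had 427 CPM in heart 1 and 311 CPM in heart 2, and Mir21a exceeded it by 47.2-fold (45.4 to 49.0) and 59.1-fold (56.8 to 61.6). Of the 13 genes counted, 3 were higher in heart 1 (Mir101b, Mir24-2 and Mir29a), 1 in heart 2 (Mir30c-2) and 9 did not pass, where 12.0% of all genes tested were higher in heart 1 and 19.1% in heart 2. The median log2 ratio was 0.10, beside -0.02 over all genes tested. Mir24-1 was not analysed here. Mir24-2, Mir29b-1, Mir29b-2, Mir29c, Mir30c-1, Mir30c-2, Mir26a-1 and Mir26a-2 hold 22 nt windows found in another precursor, so the share of this list leaves out reads in the way that the Mir199 counts do. Shared windows were not counted for Mir133a-1 and Mir133a-2, whose mature strands have other copies in the genome.

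**Figure D5:**
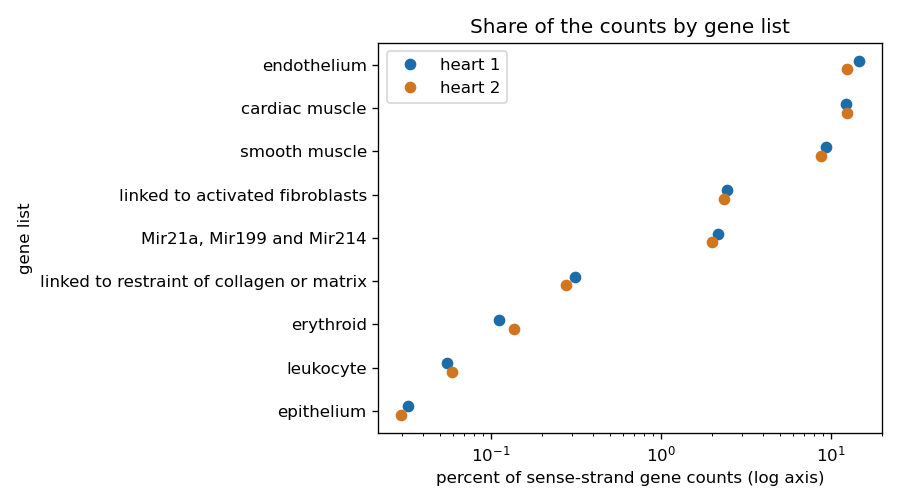
Points show the percent of sense-strand gene counts (log axis) taken by each gene list in heart 1 (blue) and heart 2 (orange). Mir21a, Mir199 and Mir214 together, at 2.18% and 2.01%, lie below the endothelium, cardiac muscle and smooth muscle lists. They also lie below the list linked to activated fibroblasts, at 2.46% and 2.37%, and above the list linked to restraint of collagen or matrix, at 0.315% and 0.276%.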

How the data were processed

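Small RNA of 2 newborn hearts was sequenced, 1 library each. Per the files deposited with the tables, the authors used mm10 with GENCODE M4 and made each table of read counts, which are raw and whole, from 1 alignment file. For the aligner, counter, trimming and versions: not given in the sources used here. The tables have no header. In gene rows the first column of counts equals the sum of the others, and was read as both strands, the second as sense and the third as opposite. Rows naming no gene were left out: 12.6% and 15.5% of reads in hearts 1 and 2 were unmapped, 35.9% and 34.6% matched several places, and 5.47% and 5.72% fell in no gene on the sense strand. Of 1973 identifiers, 1894 matched GENCODE M21 on the same build, and the other 79 had 0 counts. The members and lists were chosen with earlier results of these data known. Named genes were the 5, their fixed pairs, genes sharing a seed or within 10000 nt, the nearest in mean CPM, and the 2 leading genes of each list. Other list genes, Mir21b and the genes past the threshold in the fibrosis lists were named after their values were seen. Log2 ratios used 0.5 added counts. With 1 group no edgeR quasi-likelihood or DESeq2 test between conditions can be made, and DESeq2 gave size factors only. Simulated Poisson counts with known folds were used to check the comparison of the hearts. They held no variation between animals or libraries, as the test itself assumes, so they cannot show how it behaves where such variation exists. Software: Python 3.11.15 with SciPy 1.17.1, NumPy 2.4.6, Biopython 1.88, matplotlib 3.10.9 and pandas 2.3.3, and edgeR 4.0.16 and DESeq2 1.42.0 under R 4.3.3.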

Additional observations from a re-analysis of the deposited data

How the results depend on the processing

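No paired analysis was possible because there is 1 group. The order of the 5 genes and the direction of all 10 ratios held under every alternative tried. A new library total scales all genes of a library alike, so it could not change the order within a heart or any ratio. Counts of both strands could hardly do so, since almost no opposite-strand counts were found at the 5 genes. Divided by all mapped reads, mean levels were 10113 CPM for Mir21a, 691 for Mir214, 176 for Mir199b, 20.8 for Mir199a-2 and 1.28 for Mir199a-1, by the construction of the larger total. Without Mir126a in the total they were 22251 for Mir21a, 1519 for Mir214 and 388 for Mir199b. With counts of both strands they were 17890, 1222 and 312, and the share of the 5 genes was 1.95%, that of the activated-fibroblast list 2.24%, cardiac muscle 11.5%, smooth muscle 8.43% and leukocyte 0.0533%. Per precursor length, mean log2 ratios were -3.38 for Mir199a-1 over Mir199a-2, 4.13 for Mir21a over Mir214, -3.12 for Mir21a over Mir126a, -2.74 over Mir143 and -2.70 over Mir208b. Genes past the threshold between hearts numbered 129 to 146 in the other settings, against 135, but 1 in edgeR's exact test with the biological coefficient of variation set to 0.1, where Mir21a, Mir199a-2 and Mir199b also fell short. In the other settings their adjusted p stayed at or below 8.00e-124, 0.00398 and 0.0285. Each heart alone gave the values printed above for hearts 1 and 2. With 20 nt or 24 nt windows, chosen after seeing the data, 33.3% or 19.1% of those of Mir199a-1 were shared, against 26.5%. Depth limits Mir199a-1 the most, at 11 and 24 counts.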
